A study of Mus musculus with 2 samples.

Results

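The EGF family ligands examined here were Areg (amphiregulin), Ereg (epiregulin), Hbegf (heparin-binding EGF-like growth factor), Epgn (epigen), Tgfa (transforming growth factor alpha), Btc (betacellulin), Egf and Nrg1 (neuregulin 1). They were taken by name, 8 of the 31053 genes in the deposited matrix. The cells came from organoids of mouse small intestine, cultures in which intestinal epithelium grows in crypt-like bodies, either as controls or given melatonin. For each group, cells of 3 organoid lines were combined on culture day 3 and sequenced as droplet-based single-cell 3′ RNA libraries, so a group holds no separate measurement of each line. The study set out to ask whether melatonin, with prostaglandin E2, promotes YAP-dependent regenerative epithelial cells; the labels give no prostaglandin treatment for either group.

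EGF family ligands are made as membrane-anchored precursors that proteases such as ADAM17 cut from the cell surface. The released ligands bind EGFR or, for neuregulins, ERBB3 and ERBB4, and the paired receptors signal through the RAS-ERK cascade. In the intestine this signalling sustains crypt cell division and helps repair the epithelium after damage, and Areg, Ereg and Hbegf are known targets of YAP or of ERK in many epithelia.

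The files of the control and melatonin samples were identical in 3 of 3 pairs, and each held 1 pooled matrix in which barcodes carry the suffix 1 or 2. No label ties a suffix to a treatment, so no value below compares melatonin with control. The cells with suffix 1 (set 1) and suffix 2 (set 2) were described side by side, and ratios are set 2 over set 1, a direction with no treatment meaning. Of 12364 and 9442 barcodes, 2300 and 1766 passed as cells (at least 500 genes and 1000 unique molecular identifiers, UMIs, and at most 20% mitochondrial UMIs), with medians of 29872 and 28759 UMIs. The sets shared 29 barcode sequences, and 7 kept cells carried one of these. Markers of connective tissue were close to absent: the 7-gene mesenchymal list summed to 25 UMIs in each set, with Col3a1, Dcn and Lum at 0. The 6 immune markers summed to 163 and 102 UMIs, with Ptprc at 0, and the 3 endothelial markers to 304 and 165 UMIs.

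Each set is 1 pool, so there is no replicate error and no p-value. Levels are CPM, the UMIs of a gene per 1000000 UMIs of the summed cells, given with an exact 95% Poisson interval that covers counting error only. A gene was called higher or lower when CPM plus 1 differed at least 1.5-fold and the intervals did not overlap. The 3′ libraries count tagged molecules, so CPM was not divided by gene length.

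A run of 4 members lies next to one another. Epgn, Ereg, Areg and Btc were 4 consecutive protein-coding genes of chromosome 5 in RefSeq, while Hbegf, Egf, Tgfa and Nrg1 lie on 4 other chromosomes. RefSeq promoter windows (GRCm38.p6) matched 5 of the 8 members, namely Areg, Btc, Egf, Epgn and Tgfa. The 250 bases before the start of Areg and of its neighbour Btc are shown because both genes were higher in set 2 and in revival-like cells (values below). Capitals mark cAMP response element letters, which CREB-family factors can bind, and a TATA box:
Areg, chr5:91139349-91139598, + strand: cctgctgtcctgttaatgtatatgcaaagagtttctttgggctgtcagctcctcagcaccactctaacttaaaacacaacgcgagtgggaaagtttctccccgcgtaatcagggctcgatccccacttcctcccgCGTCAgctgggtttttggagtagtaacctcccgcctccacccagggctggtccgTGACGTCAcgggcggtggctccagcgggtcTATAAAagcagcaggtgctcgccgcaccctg
Btc, chr5:91402995-91403244, − strand: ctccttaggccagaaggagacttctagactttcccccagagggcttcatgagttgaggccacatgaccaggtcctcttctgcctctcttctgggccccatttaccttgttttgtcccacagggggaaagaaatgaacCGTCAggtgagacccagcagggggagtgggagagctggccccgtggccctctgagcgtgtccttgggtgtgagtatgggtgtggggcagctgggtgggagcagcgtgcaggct
The 6 motifs were searched in 300-base windows, which run to 50 bases past the start, on both strands except for the TATA box, which was searched on the gene's strand alone. The full element TGACGTCA began 61 bases before the Areg start, and 1.79% of all 32851 windows held it. Its half-site TGACG, which the full element contains, was found once more in Areg, on the other strand at 115 bases, and once in Btc, on the other strand at 113 bases; 20.8% of windows held it. Epgn had the half-site at 101 bases. TATAAA began 31 bases before the Areg start (8.32% of windows) and 86 bases before that of Epgn. The GC box GGGCGG occurred in Areg and Tgfa (35.7% of windows). Neither the AP-1 letters TGANTCA (7.81%) nor the TEAD letters GGAATG (14.7%) were in any of the 5 member windows. These are letter matches only.

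Nearly all ligand transcripts came from 4 members. Areg stood at 141 CPM (138–144) in set 1 and 374 CPM (368–379) in set 2, and Hbegf at 111 CPM (108–113) and 181 CPM (177–184). Btc, a ligand of EGFR and ERBB4, stood at 12.8 CPM (11.9–13.7) and 24.5 CPM (23.2–25.9). Tgfa, an EGFR ligand, stood at 5.79 CPM (5.21–6.43) and 7.75 CPM (7.0–8.55). In both sets the order was Areg, Hbegf, Btc and Tgfa, each step beyond the counting intervals. The other members were scarce. Nrg1 had 56 and 62 UMIs (0.909 and 1.21 CPM), Egf 32 and 30 UMIs, Epgn 11 and 9 UMIs, and Ereg 9 and 5 UMIs. Intervals of Nrg1 and Egf overlapped in set 1 and not in set 2, and both genes lay above Epgn and Ereg, whose intervals overlapped each other.

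Areg, Hbegf and Btc were higher in set 2. The ratio of levels was 2.65 (2.58–2.71) for Areg, 1.63 (1.58–1.68) for Hbegf and 1.92 (1.75–2.10) for Btc. These 3 of 8 members were called higher and 0 lower, against 2.46% of 15474 genes called higher and 1.40% called lower. Tgfa had a ratio of 1.34 (1.16–1.55) and missed the 1.5-fold limit on the CPM plus 1 scale. For the scarce members the intervals were wide: the ratio of Nrg1 was 1.33 (0.915–1.95), that of Egf 1.13 (0.664–1.92), that of Epgn 0.987 (0.361–2.62) and that of Ereg 0.670 (0.176–2.23).

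**Figure D1:**
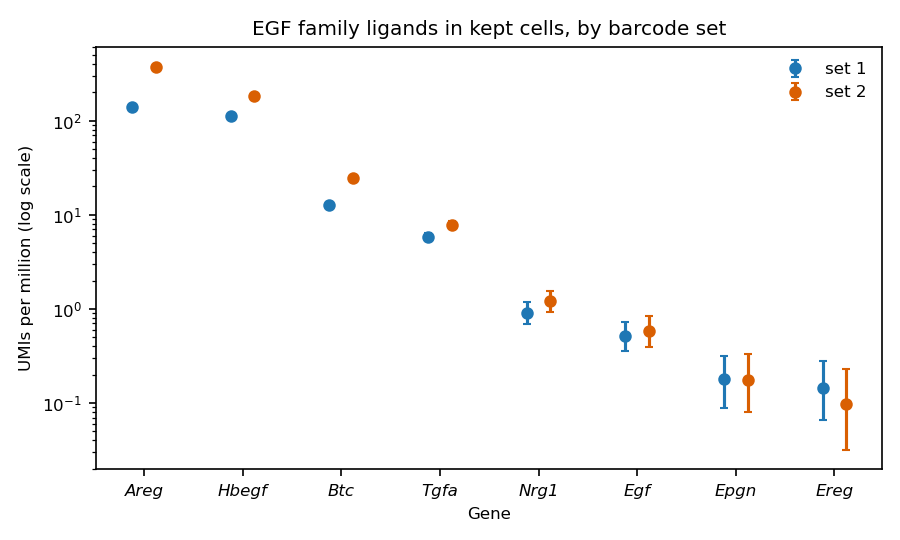
Level of the 8 EGF family ligands in kept cells of set 1 and set 2, in CPM on a log axis; points are summed levels and bars exact 95% Poisson intervals. Areg, Hbegf and Btc stand higher in set 2, and Nrg1, Egf, Epgn and Ereg stay below 2 CPM in both sets.

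Areg was also detected in a larger share of set 2 cells. It had a UMI in 52.3% of set 1 cells (1204 of 2300) and 68.5% of set 2 cells (1210 of 1766). How much of these shares is free RNA in the droplets was not tested. With every cell thinned to 2000 UMIs, which leaves 2035 and 1689 cells, the expected shares were 16.9% and 29.7%. Hbegf shares at that depth were 17.5% and 25.1%, Btc shares 2.38% and 3.90%, and Tgfa shares 1.18% and 1.55%. The Areg counts were uneven between cells. The 3 cells richest in Areg held 5.10% of the Areg UMIs of set 1 and 9.33% of those of set 2, and the highest single cell had 167 and 959 UMIs. The cell with 959 Areg UMIs held 5.02% of the Areg of set 2, had 106869 UMIs in all and 45 Btc UMIs, and passed both the goblet-Paneth and the revival gate described next. Whether it is 1 cell or a doublet was not tested. The next 4 richest cells, with 453, 370, 212 and 203 Areg UMIs, were all revival-like cells of set 2.

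Kept cells were sorted into classes by marker genes, none of them a ligand. Cells with at least 3 detected markers and at least 50 marker UMIs per 10000 were called enteroendocrine-like (hormone-producing), enterocyte-like (absorptive) or goblet-Paneth-like (secretory), and those with at least 10 per 10000 of a marker list that includes annexin, S100, Clu and Ly6a transcripts were called revival-like, after the cell state seen in regenerating epithelium. The rest were divided by proliferation markers (at least 5 per 10000) and then by stem markers (at least 5 per 10000) into dividing cells with high or low stem markers and a remainder. Sets 1 and 2 held 245 and 248 enteroendocrine-like, 153 and 206 enterocyte-like, 42 and 20 goblet-Paneth-like, 15 and 24 revival-like, 602 and 348 dividing stem-high, 783 and 535 dividing stem-low and 431 and 351 remainder cells. A further 29 and 34 cells passed more than one gate. The gates cut continuous scores: 159 cells lay within 1.5-fold of the enterocyte limit, 84 within that range of the goblet-Paneth limit and 1700 of the stem limit, which 1222 cells reached, and the revival limit had 70 cells at or above it and 70 within 1.5-fold of it on either side. Median enterocyte markers in the enterocyte-like class were 173 per 10000 in set 1 and 284 in set 2, and median depth in the remainder was 2084 UMIs in set 1 and 21453 in set 2. Medians of the other markers were low in the enterocyte-like class (stem 0.850 and 0.423 per 10000, enteroendocrine 0.472 and 0.373) and in the revival-like class (enterocyte 2.62 and 2.08, goblet 4.06 and 0.767).

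Areg was highest in revival-like and enterocyte-like cells. It reached 1309 CPM (1203–1422) in set 1 and 1565 CPM (1496–1636) in set 2 in the revival-like class, and 739 CPM (714–764) and 1090 CPM (1066–1114) in the enterocyte-like class. Goblet-Paneth-like cells had 44.1 CPM and 124 CPM, and enteroendocrine-like cells 32.9 CPM and 45.2 CPM. Dividing stem-high cells had 47.4 CPM and 130 CPM, dividing stem-low cells 107 CPM and 247 CPM, and the remainder 147 CPM and 237 CPM. Revival-like and enterocyte-like cells stood above the other single-gate classes in both sets without overlap. In set 1 the enteroendocrine-like, goblet-Paneth-like and dividing stem-high levels were close, and the goblet-Paneth-like interval (31.5–60.1) overlapped both others. Enterocyte-like cells were 6.65% and 11.7% of kept cells and held 38.6% and 40.4% of Areg UMIs. At a mitochondrial limit of 10%, looked at by class after seeing the data, 35 and 44 enterocyte-like cells remained, with Areg at 462 CPM and 624 CPM.

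**Figure D2:**
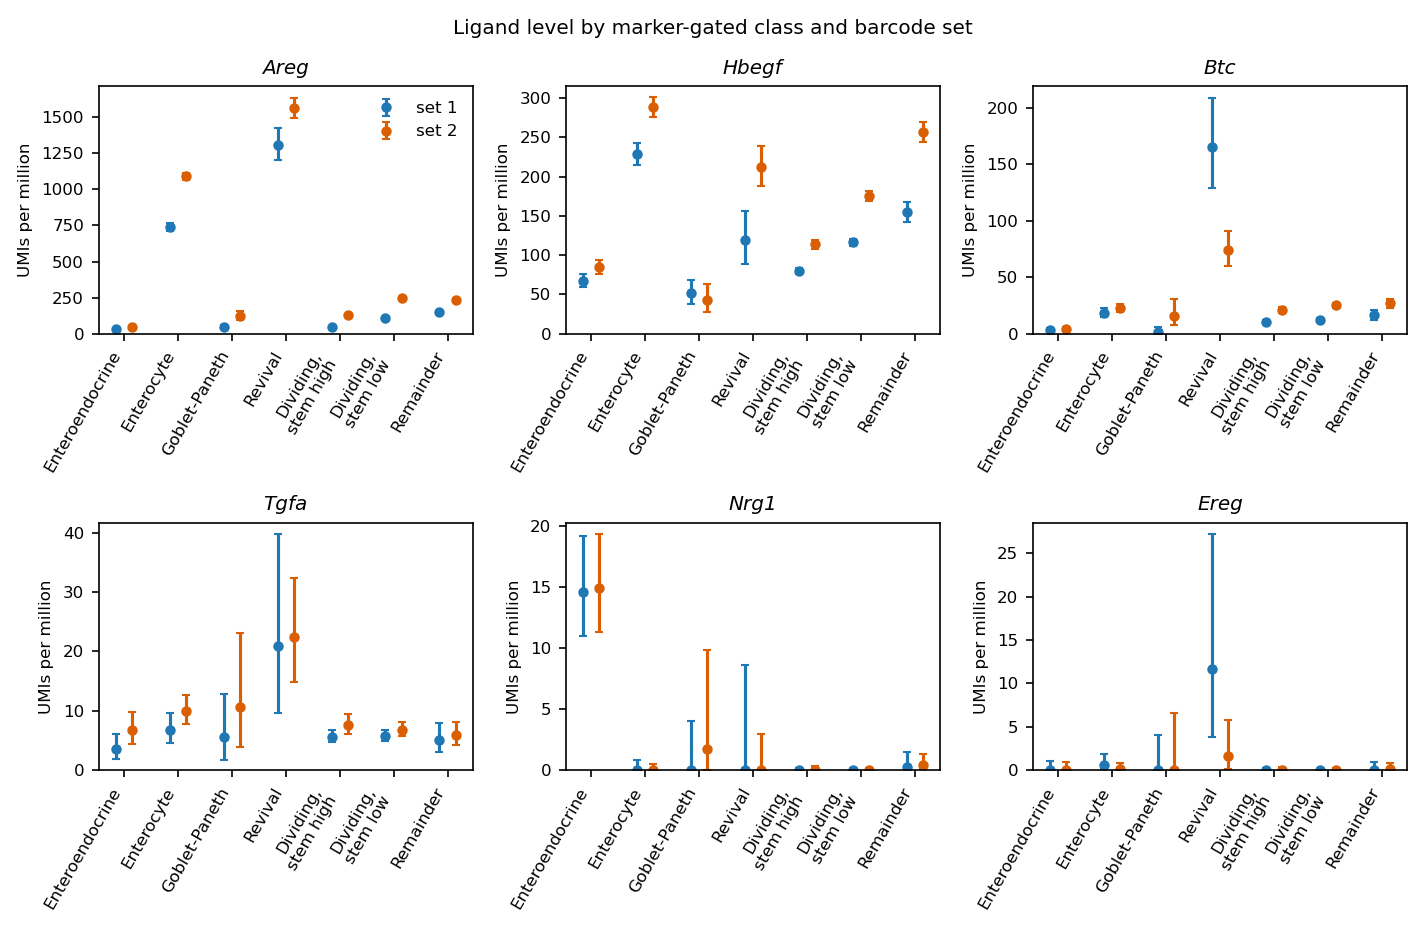
Level of 6 ligands in 7 marker-gated classes of set 1 and set 2, in CPM on linear axes that differ between panels; points are summed levels and bars exact 95% Poisson intervals. Areg is high in revival-like and enterocyte-like cells, Btc and Tgfa are highest in revival-like cells, and Nrg1 in enteroendocrine-like cells.

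Read against all other cells of the same set, Areg was called higher in revival-like cells, 9.84-fold (9.02–10.7) in set 1 and 4.55-fold (4.34–4.77) in set 2, and in enterocyte-like cells, 7.90-fold (7.56–8.25) and 4.22-fold (4.09–4.34). The richest 3 revival-like cells held 65.8% and 52.8% of that class's Areg UMIs. Without the 3 highest cells of the class and of the cells compared with it, in each set, the log2 ratio of the revival-like class was 2.53 and 1.61 in place of 3.29 and 2.18, and stood below that of the enterocyte-like class, 2.94 and 2.26. A class call had to hold in both sets. In the revival-like class 3 members were called higher, Areg, Btc and Tgfa, where 5.62% of all genes were; in the enterocyte-like class 2 were, Areg and Hbegf, where 8.14% were. In the enteroendocrine-like class 3 members, Areg, Hbegf and Btc, were called lower where 11.7% of genes were. Ereg in the revival-like class and Nrg1 in the enteroendocrine-like class, where 31.0% of genes were called higher, also met the limits, but each passed the filter of 10 UMIs over all cells only through that class and is left out of the counts. Areg and Hbegf were called lower in goblet-Paneth-like cells (2 members, background 3.01%). Areg and Hbegf were called lower in dividing stem-high cells (2 members, background 8.38%), and Areg in dividing stem-low cells (1 member, background 10.7%). Nrg1 met the limits for lower in both dividing classes, read against cells that include the enteroendocrine-like ones, and is left out of these counts too. The stem-low Areg call was lost with gates at 2 times the limits, with no mitochondrial limit and with per-cell means, the stem-high Hbegf call under the last 2 of these, the enteroendocrine-like Hbegf call with no mitochondrial limit, and Nrg1 no longer met the limits in either dividing class with a pseudocount of 10 CPM. The remainder had 0 members called in both sets (background 0.388% higher, 3.35% lower). The cells that passed more than one gate had Areg called higher (1 member, background 10.1%), with 316 CPM in set 1 and 1432 CPM in set 2. Few cells carried this: 3 cells that passed the enterocyte and revival gates gave 176 of the 185 Areg UMIs of set 1, and the median cell of that set had none.

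The share of cells with an Areg UMI followed the same classes after thinning to 2000 UMIs. It was 63.4% and 77.8% for the enterocyte-like class and 72.5% and 64.2% for the revival-like class. Dividing stem-high cells had 8.58% and 17.6%, and the enteroendocrine-like class 5.43% and 6.36%. Without thinning, the enterocyte-like and enteroendocrine-like shares were 86.3% and 24.5% in set 1, with median depths of 32373 and 14217 UMIs, and 96.1% and 29.8% in set 2, with 34083 and 14533.5 UMIs. The enteroendocrine-like share was the lowest of these; how much of it is free RNA in the droplets was not tested.

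Areg climbed with the enterocyte-marker content of the cell among enterocyte-like, dividing and remainder cells. The enteroendocrine-like, goblet-Paneth-like and revival-like cells and those passing more than one gate were left out of this grouping. In cells with fewer than 5 enterocyte-marker UMIs per 10000, Areg stood at 77.2 CPM (67.8–87.6) in set 1 and 161 CPM (154–168) in set 2. In cells with 50 to 100 it stood at 389 CPM (354–426) and 644 CPM (602–688), and in those with 400 or more at 864 CPM (805–926) and 1400 CPM (1344–1458). Set 1 levels were flat above 100 markers per 10000, at 850, 874 and 864 CPM, whereas each further step in set 2 was higher, at 900, 1199 and 1400 CPM. Only in the bin from 100 to 200 did the intervals of the sets overlap. Between the lowest and highest bins Hbegf went from 89.9 to 305 CPM (set 1) or from 157 to 349 CPM (set 2). Btc showed no such gradient: its bins lay between 11 and 23.1 CPM (set 1) or 17.2 and 32.1 CPM (set 2) over the 8 bins, and the intervals of its first and last bins overlapped in each set.

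**Figure D3:**
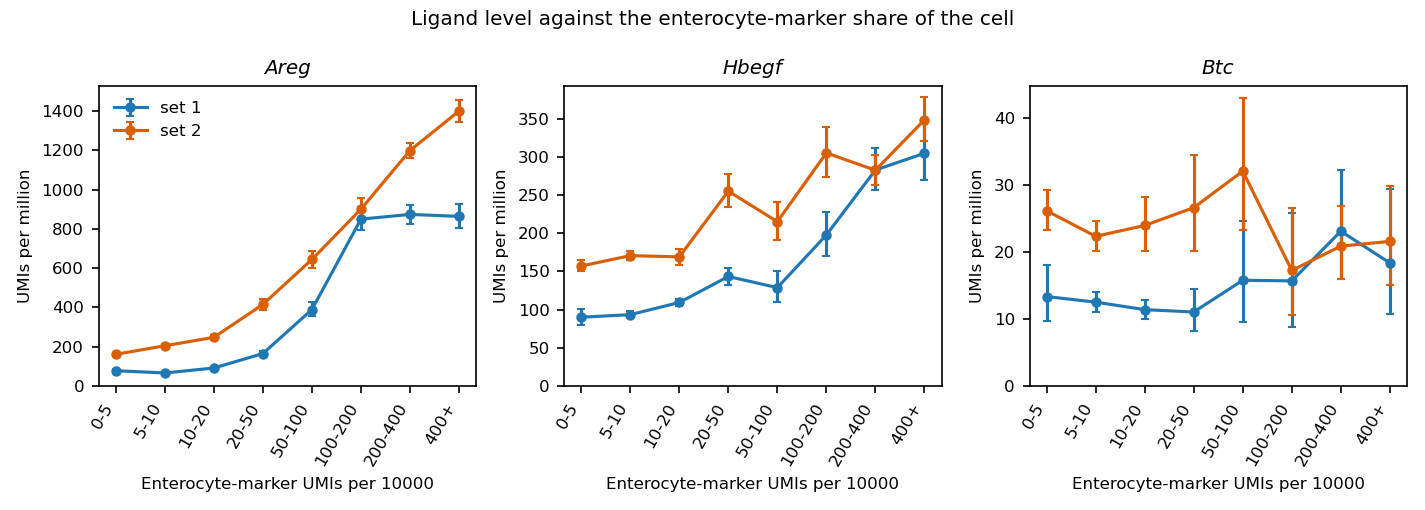
Level of Areg, Hbegf and Btc, in CPM, in cells of set 1 and set 2 grouped by their enterocyte-marker UMIs per 10000. The cells shown are those of the enterocyte-like, dividing and remainder classes. Points are summed levels, bars exact 95% Poisson intervals and lines join the bins. Between the lowest and highest bins Areg climbs to 864 CPM from 77.2 CPM (set 1) and to 1400 CPM from 161 CPM (set 2), while Btc has no steady slope.

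Hbegf, which also binds heparan sulphate at the cell surface, varied less between classes than Areg. It stood at 229 CPM (215–243) and 289 CPM (276–302) in enterocyte-like cells, 2.26-fold and 1.77-fold above other cells. The remainder had 155 CPM and 257 CPM, and revival-like cells 119 CPM (88.5–156) and 212 CPM (188–239). Dividing stem-low cells had 116 CPM and 175 CPM, and dividing stem-high cells 80.1 CPM and 114 CPM. Enteroendocrine-like cells had 67.2 CPM and 84.6 CPM, and goblet-Paneth-like cells 51.8 CPM and 42.5 CPM. Revival-like cells were not called different from other cells for Hbegf, with ratios of 1.07 (0.799–1.41) and 1.18 (1.04–1.34). Over 4 equal groups of cells ranked by 16 ERK-induced genes, Hbegf climbed with each group, to 217 CPM from 39.3 CPM (set 1) and to 302 CPM from 46.1 CPM (set 2). Median depth in the top group was lower, 18346 against 30692 UMIs in the bottom group of set 1 and 19676.5 against 29243 in set 2, and its part in the slope was not tested. Areg went from 47.1 CPM to 299 CPM in set 1 over the same groups, and in set 2 from 143 CPM to 546 CPM in the third and 524 CPM in the fourth. Btc did not climb: its lowest and highest groups had 14.7 and 11.2 CPM (set 1) or 29.6 and 19.1 CPM (set 2).

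Among single-gate classes Btc and Tgfa had their highest levels in revival-like cells. Btc stood there at 165 CPM (129–209) in set 1 and 74.2 CPM (59.9–91.0) in set 2, 14.1-fold and 3.19-fold above other cells. The richest 3 cells held 71.8% and 61.3% of these Btc UMIs, and without the 3 highest cells the log2 ratios were 2.60 and 0.68 in place of 3.71 and 1.63. In the other single-gate classes Btc lay between 1.10 and 18.7 CPM in set 1 and between 3.87 and 26.9 CPM in set 2, lowest in enteroendocrine-like and, in set 1, in goblet-Paneth-like cells, where 1 UMI was counted. Tgfa stood at 21.0 CPM (9.59–39.8) and 22.4 CPM (14.9–32.3) in revival-like cells, from 9 and 28 UMIs, and between 3.59 and 10.6 CPM elsewhere, with intervals that overlapped those of goblet-Paneth-like cells in both sets and of enterocyte-like cells in set 1. These revival-like values rest on 15 and 24 cells. Without the 5% of cells with most UMIs in each set, an alternative chosen after seeing the data, 12 and 14 revival-like cells remained, and the calls of Btc and Tgfa were lost while that of Areg was kept. The log2 ratios of Btc were then 3.33 and 0.10, and those of Tgfa 2.23 and 0.20 in place of 1.72 and 1.48.

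The 5 Ereg UMIs of revival-like cells in set 1 came from 1 cell, and the 2 in set 2 also from 1 cell. The remaining Ereg UMIs were 3 in enterocyte-like cells and 1 in dividing cells of set 1, and 3 single UMIs in set 2. Without the 3 highest cells per gene Ereg in revival-like cells no longer met the limits and its log2 ratio in set 1 was −0.0234. Epgn and Egf showed no class: Epgn UMIs were at most 5 in any class, and of the 32 and 30 Egf UMIs, 18 and 8 lay in dividing stem-low and 6 and 11 in dividing stem-high cells, which held most UMIs of all genes.

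Nrg1 was found almost wholly in enteroendocrine-like cells. They held 53 of 56 Nrg1 UMIs in set 1 and 58 of 62 in set 2, and stood at 14.7 CPM (11–19.2) and 15.0 CPM (11.4–19.3). The ratio to other cells was 283 (91.9–1418) and 177 (65.4–670), and the background of genes called higher in this class is given above. Enterocyte-like cells had 0 Nrg1 UMIs in either set, which allows up to 0.659 and 0.424 CPM at a limit of 3 UMIs. Within the class, Nrg1 was found mainly in cells with Tph1, the enzyme that starts serotonin synthesis and marks enterochromaffin cells. The Tph1-high cells (at least 5 Tph1 UMIs per 10000; 161 and 152 cells) held 47 Nrg1 UMIs at 20.1 CPM (14.8–26.8) in set 1 and 57 at 25 CPM (18.9–32.4) in set 2. Enteroendocrine-like cells low in both Tph1 and Neurog3 (61 and 90 cells) held 3 UMIs and 1 UMI, at 2.95 CPM (0.608–8.61) and 0.654 CPM (0.0165–3.64). The intervals of the Tph1-high and both-low cells did not overlap in either set. The 23 Neurog3-high, Tph1-low cells of set 1 had 3 Nrg1 UMIs, all in 1 cell, at 11.4 CPM (2.34–33.2), which overlapped the Tph1-high level, and the 6 of set 2 had 0. A Nrg1 UMI was seen in 24.2% (17.8–31.6) of Tph1-high cells in set 1 and 25% (18.3–32.7) in set 2, exact binomial intervals. Of 493 enteroendocrine-like cells, 43 lay within 1.5-fold of the Tph1 limit. Areg in the same Tph1-high cells was 19.7 and 20.2 CPM, below the 52.1 and 83.6 CPM of both-low cells, while Hbegf was 74.1 and 103 CPM against 62.9 and 60.8 CPM, with intervals that overlapped in set 1. Nrg1 is often described in intestinal mesenchyme, whose markers were at or near 0 in this matrix, as stated above.

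**Figure D4:**
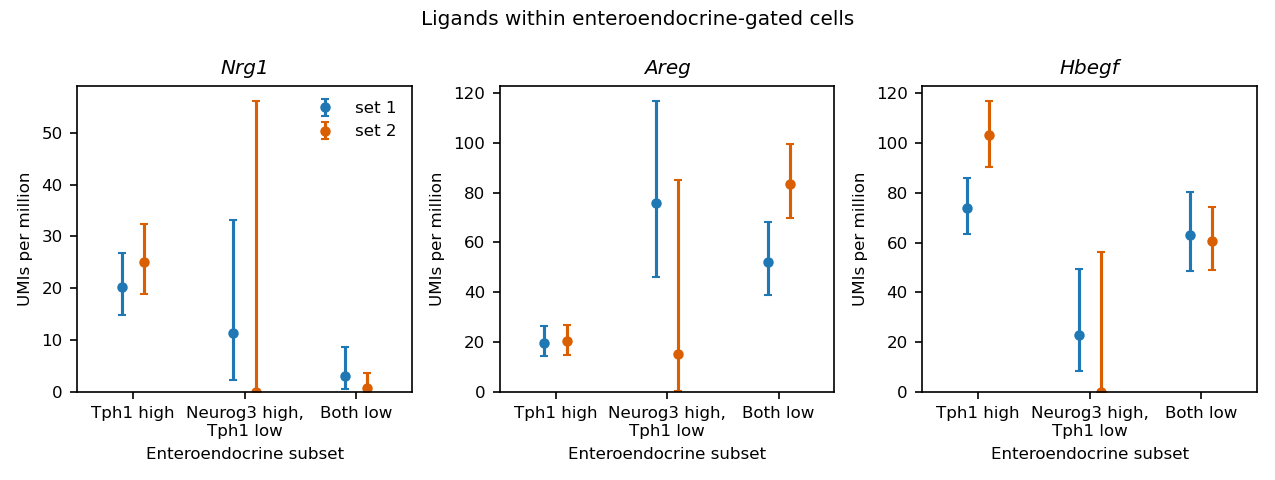
Level of Nrg1, Areg and Hbegf, in CPM, in enteroendocrine-like cells that are high in Tph1, high in Neurog3 and low in Tph1, or low in both, for set 1 and set 2; bars are exact 95% Poisson intervals. Nrg1 is at 20.1 and 25 CPM in Tph1-high cells and at 2.95 and 0.654 in both-low cells; the Neurog3-high subset holds only 23 and 6 cells.

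The Areg difference between sets was also present inside several classes. Areg was called higher in set 2 in dividing stem-high cells, 2.74-fold (2.52–2.97), dividing stem-low cells, 2.30-fold (2.19–2.41), goblet-Paneth-like cells, 2.81-fold (1.88–4.26), and the remainder, 1.60-fold (1.45–1.77). The ratio was 1.47 (1.42–1.54) in enterocyte-like, 1.37 (1.08–1.75) in enteroendocrine-like and 1.20 (1.09–1.31) in revival-like cells, under the 1.5-fold limit. The median revival-like cell went the other way, with 14.4 Areg UMIs per 10000 in set 1 and 7.93 in set 2. Btc was 1.97-fold (1.63–2.38) and 2.01-fold (1.74–2.31) higher in dividing stem-high and stem-low cells, and Hbegf 1.42-fold (1.32–1.53) and 1.51-fold (1.44–1.58). Members called higher numbered 2 in dividing stem-high cells (Areg and Btc; 2.55% of genes), 3 in dividing stem-low cells (Areg, Hbegf and Btc; 2.42%), 3 in the remainder (Areg, Hbegf and Btc; 1.18%) and 1 in goblet-Paneth-like cells (Areg; 1.59%), where Btc met the limits from 1 and 9 UMIs and is not counted. The cells passing more than one gate had 3 (Areg, Hbegf and Btc; 3.59%), but 1 cell gave 959 of 1359 Areg and 45 of 75 Btc UMIs of set 2 there, and 3 cells held 95.1% of the Areg UMIs of set 1. In revival-like cells 1 member, Hbegf, was called higher (2.15% of genes), with 52.9% and 55.3% of its UMIs there in 3 cells, and 1, Btc, lower, at a ratio of 0.449 (0.326–0.620), where 2.19% of genes were. In the enterocyte-like and enteroendocrine-like classes 0 members were called higher (1.46% and 1.34% of genes).

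Class proportions and levels both moved with the sets. Set 2 levels weighted by set 1 class shares of UMIs gave an Areg ratio of 1.95 in place of 2.65, while set 1 levels at set 2 shares gave 1.51. For Hbegf the values were 1.45 at the set 1 mix and 1.12 from the mix alone, beside 1.63 as measured. For Btc they were 1.80 and 1.27, beside 1.92.

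**Figure D5:**
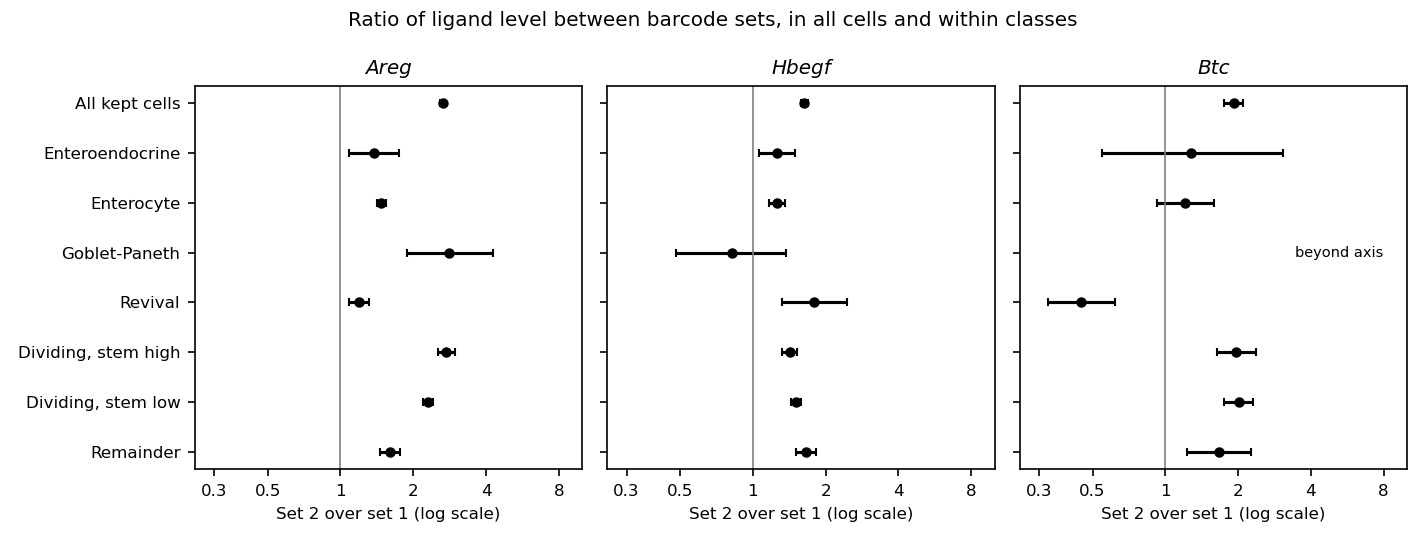
Ratio of Areg, Hbegf and Btc levels in set 2 over set 1, on a log axis, in all kept cells and in 7 marker-gated classes; bars are exact 95% intervals and the grey line marks equal levels. Areg is above the line in each class shown, and Btc in revival-like cells is below it at 0.449; the Btc ratio of goblet-Paneth-like cells, from 1 and 9 UMIs, lies beyond the axis.

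The ligands did not all vary together from cell to cell. Pearson correlations of log levels over cells are descriptions, since cells of a set share a library and differ in depth. Areg and Hbegf had r = 0.35 over 2300 cells of set 1 and 0.42 over 1766 cells of set 2, and inside enterocyte-like cells 0.51 (153 cells) and 0.40 (206 cells). In dividing stem-low cells the values were 0.34 and 0.41, and in stem-high cells 0.24 and 0.44. Enteroendocrine-like cells had 0.26 and 0.005, and goblet-Paneth-like cells −0.09 and −0.07. Areg and Btc had 0.16 and 0.22 over all cells. Over the 15 and 24 revival-like cells Areg had 0.68 and 0.43 with Btc, 0.45 and 0.48 with Tgfa, and −0.08 and 0.33 with Hbegf. Among 7121 genes at 10 CPM or more, those most like Areg were Lgals3, the drug-metabolising genes Cyp2b10 and Cyp3a13, the hepatic and intestinal lipid regulator Creb3l3, and the fatty acid binding protein Fabp1, with r between 0.42 and 0.47 (set 1) and between 0.53 and 0.58 (set 2). Fabp1 is also 1 of the enterocyte markers. Those most like Hbegf were Pmaip1, Fos, Atf3, Selenoi and Edn1, with r between 0.30 and 0.36 (set 1) and between 0.37 and 0.52 (set 2). Fos, Atf3 and Pmaip1 are stress or growth-factor response genes. For Btc the 5 nearest genes were Anxa2, Emp1, 2200002D01Rik, Gsta1 and S100a6, at r of 0.22 or less in set 1 and 0.18 or less in set 2, and for Tgfa the 5 nearest genes had r of 0.09 or less in each set.

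Summed over all kept cells, each receptor was at a lower CPM than Areg, but in enteroendocrine-like cells Erbb3, at 93.2 and 71.0 CPM, stood above it and the Egfr interval overlapped that of Areg in both sets. Erbb3 was the most counted, at 39.8 CPM (38.2–41.4) and 39.2 CPM (37.5–41.0), followed by Erbb2, the partner without a ligand of its own, at 11.2 and 12.1 CPM, and Egfr at 7.74 and 9.25 CPM. Erbb4 had 0 UMIs, which allows up to 0.0487 and 0.0587 CPM. None of the 3 receptors tested was called different between sets, where 2.46% of all tested genes were called higher and 1.40% lower. Among single-gate classes Egfr was highest in enteroendocrine-like cells, 34.8 and 45.9 CPM, and in revival-like cells, 34.9 and 40.7 CPM, where 3 cells or fewer held 100% and 74.5% of its UMIs, and it stood at 4.39 and 2.69 CPM in enterocyte-like cells, with intervals that overlapped those of dividing stem-low, remainder and goblet-Paneth-like cells in both sets. Nrg4, a neuregulin outside the 8 genes, stood at 1.46 and 1.55 CPM and at 6.59 and 4.67 CPM in enterocyte-like cells, which held 33.3% and 41.8% of its UMIs; goblet-Paneth-like intervals overlapped these in both sets, and those of remainder cells and of revival-like cells, which had 0 Nrg4 UMIs, did so in set 1.

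Of the genes that release or carry the ligands, 0 of 9 tested were called different between sets, where 2.46% of all tested genes were called higher and 1.40% lower; the counts of this paragraph stand beside the same shares. Adam17 stood at 11.2 and 11.3 CPM and Adam10 at 38.2 and 37.8 CPM, and Rhbdf1, which helps ADAM17 mature, had the largest ratio of the 9, 1.46 (1.24–1.72). Of 14 feedback inhibitors, 2 were called higher in set 2: Dusp6, an ERK phosphatase, from 17.4 to 29.3 CPM, and Spry1 from 10.8 to 17.5 CPM. Of 16 ERK-induced genes, 2 were called higher: Plaur, the urokinase receptor, from 1.82 to 9.47 CPM, with 23.6% of its set 2 UMIs in 3 cells, and Fosl1 from 2.01 to 5.09 CPM. Of 11 YAP targets tested, 6 were called higher, among them Cyr61 from 13.9 to 36.9 CPM and F3 from 6.72 to 24.1 CPM, with 20.1% of its set 2 UMIs in 3 cells. The 6 include Ankrd1, with 0 UMIs in set 1 and 41 in set 2, of which 39 came from 1 cell. Ankrd1 passed the filter of 10 UMIs only through set 2 and should not be read in that count. It is named here after its values were seen, and the YAP-target median below includes it. No gene of these lists was called lower. Median log2 ratios were 0.18 for release genes, 0.01 for feedback genes, 0.28 for ERK-induced genes and 0.60 for YAP targets, beside 0.29 for the 8 ligands and 0.03 for all tested genes. Over cells grouped by YAP-target UMIs, Areg ran from 138 CPM in cells with none to 806 CPM in those with 4 or more per 10000 in set 2; in set 1 it ran from 77.5 CPM to 298 CPM between 2 and 4 and 227 CPM above. The share of cells with an Areg UMI did not follow: it was 77.1%, 73.8% and 50.6% in the last 3 groups of set 2, and 63.6%, 57.9% and 30.4% in those of set 1. Median depth differed between these groups: cells with none had 2114 and 5964 UMIs, the middle groups between 18962 and 36736, and the highest group 12132 and 14837. Its part in the slope was not tested.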

How the data were processed

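UMI counts per gene and barcode were analysed as deposited by the authors, whole numbers in 1 matrix of 31053 genes and 21806 barcodes. Per the submitters' processing notes, Cell Ranger 3.1.0, STAR 2.7.3a and bcl2fastq 2.20.0 were used; the genome build and annotation are not given in the sources used here. The files of both samples were the same, and barcode suffixes were used as 2 sets without a treatment.

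Summed UMIs were scaled to CPM, compared with a pseudocount of 1 CPM over genes with at least 10 UMIs, and given exact Poisson, exact conditional (ratios) or Clopper-Pearson (shares) 95% intervals. PCR and cell-to-cell spread are not covered. Class gates used marker lists, of which 1 revival marker is not reported here; their limits were set after marker distributions were seen. No doublet caller was used. All 8 members are named; for those with at least 200 UMIs in each set, the 5 genes with the highest smaller correlation of the sets were named; from each pathway list at most 6 genes with the largest ratios at 5 CPM or more. Tph1-high and Neurog3-high cells had at least 5 UMIs of that gene per 10000. The members and lists were chosen with earlier results of these data known. Alternatives covered cell filters, pseudocounts, scaling, gates other than the stem limit, per-cell means and the richest cells. Python 3.11.15, numpy 2.4.6, scipy 1.17.1, pandas 2.3.3 and matplotlib 3.10.9 were used. The code for the calls was run on simulated Poisson counts. These hold no spread between cells, so they cannot test calls carried by few cells.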

Additional observations from a re-analysis of the deposited data

Results flagged for a closer look

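Areg and Hbegf were also counted in barcodes left out for over 20% mitochondrial UMIs, here as CPM of non-mitochondrial UMIs. In barcodes with 20% to 50%, Areg stood at 265.2 in set 1 and 463.1 in set 2, and Hbegf at 153 and 208.5. In barcodes with over 50%, Areg stood at 262.8 and 508.7, and Hbegf at 117.1 and 231. These barcodes had medians of 1295 to 3315 non-mitochondrial UMIs, and both genes were higher in set 2 in them as in kept cells. Among kept barcodes Areg stood at 215 and 823 with up to 5%, 103 and 283 with 5% to 10%, and 253 and 598 with 10% to 20%. Whether they are damaged cells or free RNA was not tested.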

How the results depend on the processing

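The 3 members called higher in set 2 stayed called under the alternatives tried. With per-cell means a call used the 1.5-fold limit alone, without intervals. The Areg log2 ratio, 1.40, moved to 1.56 at a mitochondrial limit of 10%, 1.31 with no such limit, 1.34 with a pseudocount of 10 CPM, 1.11 when per-cell CPM were averaged, 1.34 without the 3 highest cells per gene, 1.35 with median-ratio scaling and 1.25 without the 5% of cells with most UMIs (204 cells), the last chosen after seeing the data. The other settings gave 1.40 to 1.41. The 7 member and class pairs that met the limits for higher, Ereg in revival-like and Nrg1 in enteroendocrine-like cells included, became 4 without those 204 cells, losing Btc, Tgfa and Ereg in revival-like cells, and 5 without the 3 highest cells per gene, losing Tgfa and Ereg. They became 6, losing Ereg, with a pseudocount of 10 CPM and with gates at 0.5 times the limit, the latter chosen after seeing the data. The Ereg log2 ratio there changed sign to −0.0234 in set 1 without the 3 highest cells, and to −0.10 in set 1 and −0.0940 in set 2 without the cells with most UMIs. Of 10 pairs that met those for lower, Nrg1 in both dividing classes included, 7 were kept with no mitochondrial limit, 8 with a pseudocount of 10 CPM, 8 with per-cell means, 9 with gates at 2 times the limits and 10 under the other settings run by class, which did not include the 10% mitochondrial limit. In the gate settings the stem limit stayed at 5 per 10000, so the split of dividing cells by stem markers was not varied. The share of cells with an Areg UMI, 16.9% and 29.7% at 2000 UMIs, was 28.0% and 44.8% at 5000 UMIs and 52.3% and 68.5% without thinning. Areg between sets is given above and left out here. Of 77 single values of the other members between sets 72 moved little and 5 more. Of 306 between classes, Areg included, 227 moved little, 76 more and 3 changed sign. Little means within the counting interval of the main value, which is wide for scarce members. Dropping the filter on low counts could not change the values between sets. No paired analysis was possible because the files hold 1 pooled matrix with no replicates, and no replicate could be left out. Scarce members (Ereg, Epgn, Egf, Nrg1) are limited by their UMI counts.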
